A study of Homo sapiens with 8 samples.

Results

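The 17q24 interval on the long arm of chromosome 17 spans 65800001 to 66700000 (hg19). The 5 genes followed in it are AMZ2, ARSG, SLC16A6, WIPI1 and PRKAR1A. Its windows were described for SON signal in 786-O cells given the HIF-2α inhibitor PT2399 or its vehicle. The interval was chosen by the very contrast described here, as one of the places where SON signal was higher with PT2399, so its changes are a description with no test of their own. All windows lying wholly inside it were taken, which gave 73 of 278316 windows of 100 kb and 154 of 556938 windows of 50 kb. On chromosome 17 there were 7299 and 14607 windows of these sizes.

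Treated cells received 2 µM PT2399 for 3 h and control cells an equal volume of DMSO for 3 h, both in medium with serum at atmospheric oxygen. 786-O is an established line of human clear cell renal carcinoma that lacks functional VHL, so that HIF-2α is stable in both groups without hypoxia. There were 2 SON pulldowns and 2 inputs with PT2399, and 2 pulldowns and 2 inputs with DMSO, grouped by title because the antibody or treatment field of 4 of the 8 libraries said otherwise. The values analysed were 1 mean level per treatment and window, so neither a spread between replicates nor the depth of a library can be given, and the cell line could not be checked by markers.

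Nuclear speckles are bodies rich in splicing factors, and SON is one of their core proteins. In SON TSA-seq, a peroxidase reaction at the SON antibody puts biotin on nearby DNA, and the pulled-down DNA is enriched for chromatin close to speckles. Gene-rich, GC-rich and active chromatin usually lies near speckles, whereas gene-poor chromatin lies at the nuclear periphery with little SON signal. HIF-2α is a transcription factor that pairs with ARNT and binds short sites with the core ACGTG or GCGTG, and PT2399 blocks that pairing.

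The genes have unrelated roles. AMZ2 encodes a zinc metallopeptidase of the archaelysin family, and ARSG encodes arylsulfatase G, a lysosomal enzyme that takes part in the breakdown of heparan sulfate. SLC16A6 encodes a member of the monocarboxylate transporter family, which in zebrafish is needed for the liver to export ketone bodies. WIPI1 encodes a phosphoinositide-binding protein of the forming autophagosome, and PRKAR1A encodes a regulatory subunit of protein kinase A that is mutated in Carney complex. In the RefSeq gene order on GRCh38, SLC16A6 lies inside ARSG, and WIPI1 overlaps the ends of both ARSG and the longest PRKAR1A annotation. BPTF, C17orf58 and KPNA2 precede the 5 genes, and FAM20A follows them. In the hg19 coordinates that placed the genes, each is represented by a single position, 66.244 Mb for AMZ2, 66.255 Mb for ARSG, 66.287 Mb for SLC16A6, 66.453 Mb for WIPI1 and 66.508 Mb for PRKAR1A.

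Promoter sequences are shown for the members because 3 of them lie in windows called higher and 2 lie in windows that were not. RefSeq promoters of GRCh38.p14, from 250 bases before to 50 bases after a start site, were found for 4 of the 5 members, and the first listed start was taken where a gene had several (3 for AMZ2, 5 for PRKAR1A). SLC16A6 had no entry. The AMZ2 promoter is chr17:68247793-68248092 on the plus strand, the ARSG promoter chr17:68258920-68259219 on the plus strand, the WIPI1 promoter chr17:68457447-68457746 on the minus strand, and the PRKAR1A promoter chr17:68511750-68512049 on the plus strand. Capitals mark matches to ACGTG or GCGTG on either strand.
AMZ2: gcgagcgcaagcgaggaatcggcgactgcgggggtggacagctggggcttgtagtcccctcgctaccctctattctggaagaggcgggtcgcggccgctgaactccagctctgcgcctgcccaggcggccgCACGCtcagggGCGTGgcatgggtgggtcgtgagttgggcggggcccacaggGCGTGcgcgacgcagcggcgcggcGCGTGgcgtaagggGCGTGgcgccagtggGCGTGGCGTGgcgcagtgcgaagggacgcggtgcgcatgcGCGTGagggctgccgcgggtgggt
ARSG: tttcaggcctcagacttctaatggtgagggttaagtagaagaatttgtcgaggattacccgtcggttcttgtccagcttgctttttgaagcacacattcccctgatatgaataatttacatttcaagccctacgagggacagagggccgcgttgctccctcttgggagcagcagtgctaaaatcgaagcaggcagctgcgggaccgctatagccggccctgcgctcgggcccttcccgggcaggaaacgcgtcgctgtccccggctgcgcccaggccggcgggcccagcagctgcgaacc
WIPI1: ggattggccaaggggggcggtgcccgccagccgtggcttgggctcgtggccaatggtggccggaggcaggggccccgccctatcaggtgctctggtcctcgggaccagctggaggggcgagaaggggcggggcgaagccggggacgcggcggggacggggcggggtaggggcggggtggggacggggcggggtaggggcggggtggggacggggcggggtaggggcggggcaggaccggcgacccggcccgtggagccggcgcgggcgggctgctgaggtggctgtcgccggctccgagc
PRKAR1A: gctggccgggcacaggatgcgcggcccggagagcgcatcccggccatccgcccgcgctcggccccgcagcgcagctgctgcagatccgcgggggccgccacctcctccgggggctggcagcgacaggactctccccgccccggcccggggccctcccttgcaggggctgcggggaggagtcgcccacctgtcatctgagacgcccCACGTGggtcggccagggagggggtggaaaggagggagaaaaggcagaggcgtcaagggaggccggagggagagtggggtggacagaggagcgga

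The AMZ2 promoter held 8 matches, the PRKAR1A promoter held 2 overlapping matches that form a single palindrome, and the ARSG and WIPI1 promoters held 0. Of 35116 RefSeq promoters of this length, 48.4% held at least 1 match, 23.1% at least 2 and 0.245% at least 8. The letters are also frequent in CG-rich sequence, and the AMZ2 promoter had 41 CG dinucleotides, at the 94.2th percentile of all promoters. GC content was 73.7% for AMZ2, 58.3% for ARSG, 79.7% for WIPI1 and 74.7% for PRKAR1A, against a median of 58.7%. A match is not a binding site, and the windows below are far wider than a promoter.

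SON signal went from high at the lower-coordinate end of the interval to none at the other, without a steady fall between. Levels are log2 concentrations as deposited, with a lowest value, called the floor, of -0.11 for PT2399 and -0.07 for DMSO. The first 100 kb window inside stood at 8.09 with PT2399 and 8.44 with DMSO, and the highest PT2399 level, 9.06, was at 65950001 to 66050000, with 8.97 for DMSO. The highest DMSO level, 9.17, was at 66000001 to 66100000, with 8.98 for PT2399. The last 10 windows of 100 kb, from 66500001 to 66700000, were at the floor in both treatments, which made 13.7% of the interval's windows, against 18.9% on chromosome 17 and 61.7% over the series. Just outside, the window at 65700001 to 65800000 had 8.69 with PT2399 and 8.50 with DMSO, and the window at 66700001 to 66800000 was at the floor in both. On the higher-coordinate side all 73 windows of 100 kb in the neighbouring 900 kb were at the floor, against 0 of 73 on the lower side. Of the 154 windows of 50 kb on the higher side, 150 were at the floor in both treatments. The other 4 had a median change of 3.62. The 5 genes lie at higher coordinates than the windows with the highest levels, where the fall was not steady. DMSO was at 1.21 at 66210001 to 66310000 and at 6.25 at 66350001 to 66450000. PT2399 was at 6.48 at 66100001 to 66200000 and at 8.17 at 66230001 to 66330000.

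Along the interval the 2 treatments parted and crossed more than once. For 9 windows of 100 kb at the lower end, up to 65980000, PT2399 levels of at most 8.09 lay below DMSO levels of 7.51 to 8.57 window by window, with changes (PT2399 minus DMSO) of -0.98 to -0.02. From 66130001 to 66440000, 20 consecutive windows were all higher with PT2399, at 6.29 to 8.17 against 1.21 to 6.55 with DMSO. The next 5 windows, from 66350001 to 66500000, lay the other way, at 3.01 to 5.34 with PT2399 and 5.57 to 6.25 with DMSO. In 5 windows from 66440001 to 66580000, DMSO was at the floor and PT2399 at 0.46 to 4.51. Only the stretch of 20 windows held windows past the threshold of an FDR of at most 0.01 in the authors' deposited tables.

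**Figure D1:**
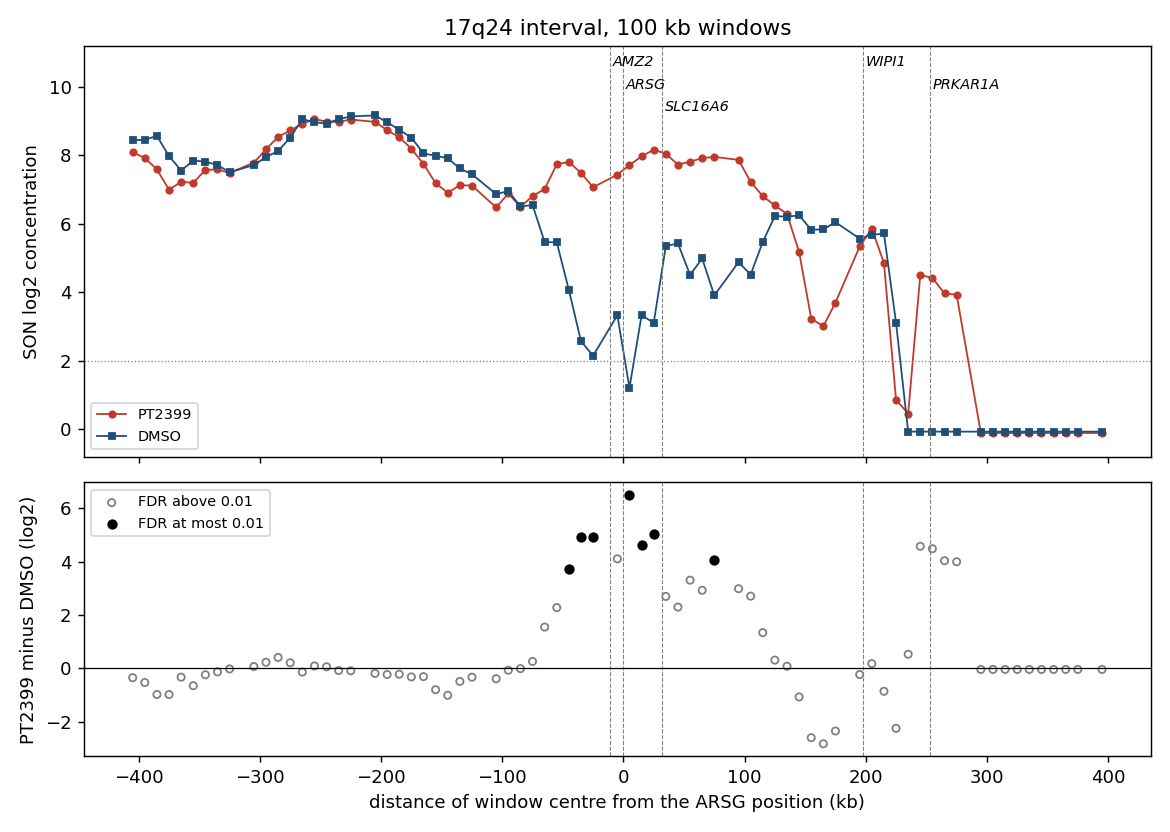
SON log2 concentration (upper panel) with PT2399 (red circles) and DMSO (blue squares), and PT2399 minus DMSO in log2 (lower panel), for the 73 windows of 100 kb, by distance of the window centre from the ARSG position in kb. Dashed lines mark the gene positions, the dotted line a log2 level of 2, and filled points the 7 called windows (FDR of 0.01 or less), which lie around AMZ2, ARSG and SLC16A6, where DMSO dips to 1.21.

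At that threshold 7 of the 73 windows of 100 kb were higher with PT2399 and 0 were lower. Across the series 0.363% of the 106472 windows above the floor in at least 1 treatment were called higher and 1.61% lower, and 1.03% of those with a mean level like that of the 7 (6.12 to 7.21) were called higher. Since the interval was chosen on this contrast, nothing is read from its excess over these shares. In the 7 windows PT2399 stood at 7.07 to 8.17 and DMSO at 1.21 to 4.07, with changes of 3.74 to 6.51 and a median of 4.92. Elsewhere, windows of the same mean level, called or not, had a median absolute change of 0.69. Their 5th percentile of change was -2.14 and their 95th percentile 1.77. The PT2399 levels of the 7 windows lay between the 32.7th and 49.4th percentiles of all PT2399 levels above the floor. Their DMSO levels lay between the 0.832th and 7.0th percentiles of DMSO levels above the floor. The 7 windows were picked by their calls, and at a like mean level a large change above 0 implies a low DMSO level. These values therefore only describe them.

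The called 100 kb windows merged into 1 stretch of 220 kb, from 66160001 to 66380000, and those of 50 kb into 1 stretch of 160 kb inside it, from 66205001 to 66365000. The lowest FDR at 100 kb belonged to the window at 66210001 to 66310000, with 7.72 for PT2399 and 1.21 for DMSO, 6.51 apart, and an FDR of 6.09e-07 in the authors' deposited table. The highest level with PT2399 was in the window at 66230001 to 66330000, with 8.17 against 3.11 with DMSO (FDR 4e-06 in the authors' deposited table). At the threshold itself, the window at 66180001 to 66280000 passed with 7.07 for PT2399 and 2.15 for DMSO (FDR 0.00866 in the authors' deposited table). The window at 66200001 to 66300000 missed it with 7.44 for PT2399 and 3.33 for DMSO (FDR 0.0196 in the authors' deposited table). Those 2 windows share most of their sequence.

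At 50 kb, 13 of the 154 windows were higher and 0 lower, beside 0.125% higher and 0.438% lower among the 223579 windows of the series above the floor. Of windows with a like mean level (5.59 to 6.74), 0.652% were called higher. In 9 of the 13 the DMSO value was at the floor, so that the size of the change depends on where the floor lies, and in 3 it was at least 2. The lowest FDR was at 66285001 to 66335000, with 7.73 for PT2399 and 1.21 for DMSO, 6.52 apart, and an FDR of 5.83e-09 in the authors' deposited table. The largest change, 7.38, was at 66290001 to 66340000, where DMSO was at the floor and PT2399 at 7.31. By their starts, the 13 called windows fell into 2 groups that overlap at their edges, with 7 windows that were not called starting between them. In the first group, 6 consecutive windows from 66205001 to 66280000 had DMSO at the floor and PT2399 at 6.58 to 6.85. Among the windows starting between the groups, DMSO stood at 5.76 in the window at 66240001 to 66290000, with 6.75 for PT2399. In the second group, 7 windows between 66275001 and 66365000 were called, with PT2399 at 6.67 to 7.73.

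**Figure D2:**
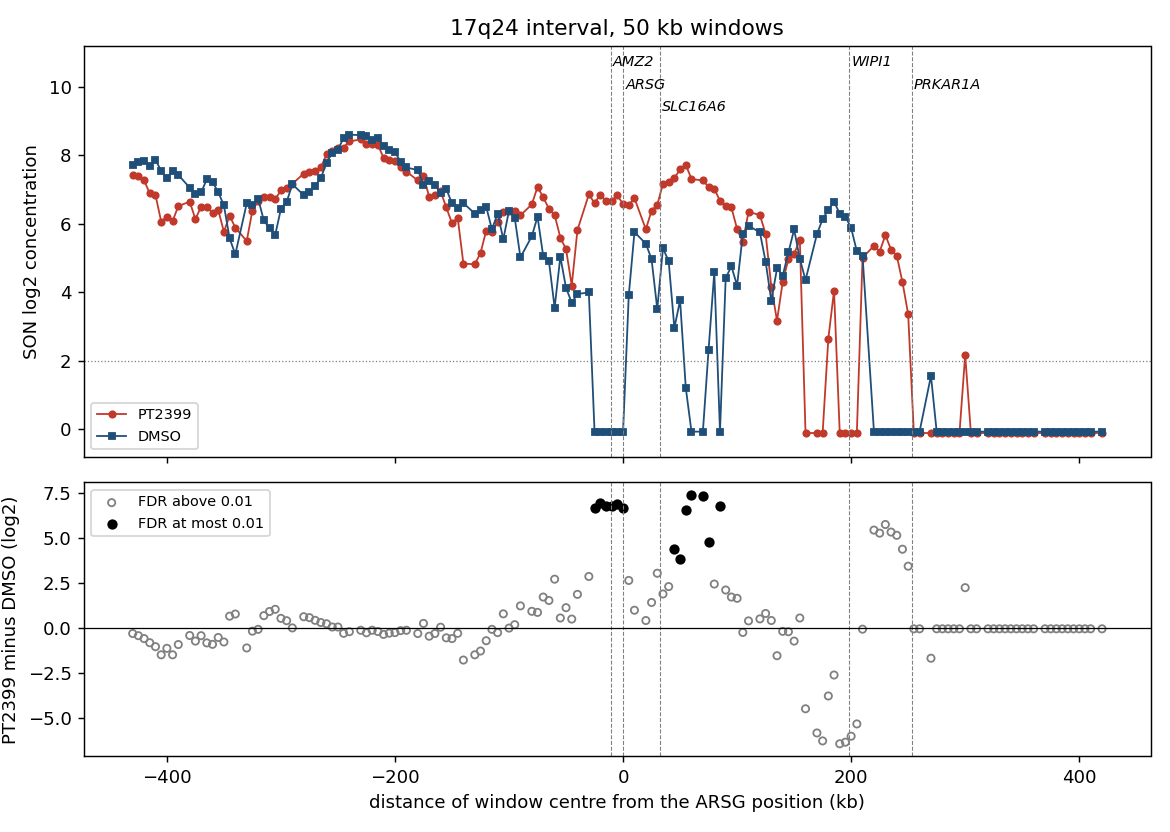
SON log2 concentration (upper panel) with PT2399 (red circles) and DMSO (blue squares), and PT2399 minus DMSO in log2 (lower panel), for the 154 windows of 50 kb, by distance of the window centre from the ARSG position in kb. The 13 called windows (filled) form 2 groups in which DMSO lies between the floor and 3.77, and around WIPI1 it is PT2399 that reaches the floor.

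AMZ2 and ARSG lie close together and share most windows. Over the ARSG position, the 9 sets of 100 kb windows gave 7.07 to 8.17 with PT2399 (median 7.73) and 1.21 to 5.43 with DMSO (median 3.33). The change was above 0 in all 9, from 2.30 to 6.51, and 6 of the 9 windows were called higher. The ranges of the 2 treatments did not overlap, though the windows share sequence and libraries and are no replicates. Over AMZ2, PT2399 ran from 7.07 to 8.17 (median 7.74) and DMSO from 1.21 to 5.46 (median 3.33), again with 6 of 9 called. The 50 kb windows narrowed the PT2399 range to 5.84 to 6.85 for ARSG and 6.55 to 6.86 for AMZ2. DMSO was at the floor in 6 of 9 windows over each gene and reached 5.76 in the rest. The same 6 windows were the called ones, with changes of 6.65 to 6.92, and the window at 66240001 to 66290000, which also contains both positions, had a difference of only 0.99, with an FDR of 0.759 in the authors' deposited table.

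SLC16A6 is placed at the lower-coordinate edge of the second group of called 50 kb windows, and the 50 kb window with the lowest FDR contains it. Its 100 kb windows had 7.44 to 8.17 with PT2399 (median 7.92) and 1.21 to 5.43 with DMSO (median 3.91), and 4 of 9 were called. Its 50 kb windows had 5.84 to 7.73 with PT2399 (median 7.18) and 1.21 to 5.76 with DMSO (median 4.91), so that the lowest PT2399 value and the highest DMSO value nearly met. All 9 changes were above 0, from 0.42 to 6.52, and 3 were called, the 3 that reach farthest past the gene towards higher coordinates. The 50 kb windows that reach farthest the other way, such as 66250001 to 66300000 with 5.84 for PT2399 and 5.42 for DMSO, were not.

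WIPI1 lay in a stretch of opposite sign that did not reach the threshold. Its 50 kb windows had PT2399 at the floor in 5 of 9 and at most 5.36, against DMSO levels of up to 6.65 with a median of 6.14 and 1 window at the floor. The change was below 0 in 8 of 9, with a median of -5.31. The lowest FDR among them was at 66405001 to 66455000, where PT2399 was at the floor and DMSO at 6.14 (FDR 0.0272 in the authors' deposited table). At 100 kb the median change was -0.86, with 6 of 9 windows below 0, a range of -2.83 to 4.58 and none called. Inside the whole interval, changes below 0 had an unadjusted p under 0.05 in 13 windows of 50 kb and 2 of 100 kb in the authors' deposited tables. For changes above 0 the numbers were 25 and 11. The 2 lower windows of 100 kb, within 65820001 to 65930000, lie at the lower-coordinate end and not over WIPI1, as do some of those of 50 kb. Neighbouring windows overlap and the share of series windows under this p was not counted, so nothing is read from these numbers.

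PRKAR1A sits where the signal runs out. Its 100 kb windows had 0 calls, with PT2399 at -0.11 to 5.86 (median 3.97) and DMSO at the floor in 6 of 9 and at most 5.72. The change ran from -2.25 to 4.58 with a median of 0.53. At 50 kb, PT2399 was at the floor in 4 of 9 windows and at most 5.67, and DMSO was at the floor in 8 of 9 and at 1.56 in the other. The lowest FDR over this gene was 0.166, at 66460001 to 66510000, with 5.67 for PT2399 and DMSO at the floor, in the authors' deposited table. In 5 of the 9 windows PT2399 was at 3.36 to 5.67 over a DMSO floor, as over ARSG but at lower PT2399 levels, and none passed the threshold.

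**Figure D3:**
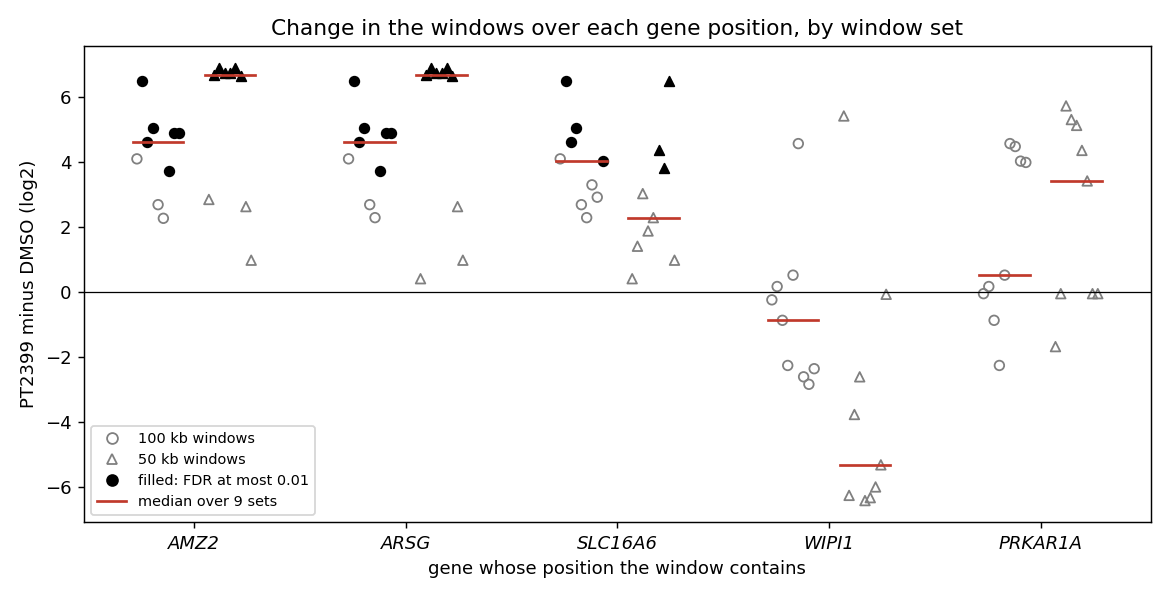
Change in SON signal (PT2399 minus DMSO, log2) in each of the 9 windows of 100 kb (circles) and of 50 kb (triangles) that contain the position of each gene, in the order of the window sets from left to right. Filled symbols have an FDR of at most 0.01 and red bars are medians: 4.64 and 6.68 for ARSG, 4.05 and 2.30 for SLC16A6, and -0.86 and -5.31 for WIPI1 (100 kb, then 50 kb).

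The window sets agreed in part. At 100 kb, 6 of the 9 sets held a called window, and the positions 66230001 to 66260000, which hold AMZ2 and ARSG, lay in 6 called windows of the 9 that cover them. All 9 of those windows had a change above 0. At 50 kb every set held 1 or 2 called windows, and the best supported positions were 66315001 to 66325000, with 7 of 9 windows called. Those positions do not overlap the best supported ones at 100 kb. The best window of 100 kb set 6, at 66450001 to 66550000, lay outside the stretch, with 4.51 for PT2399 and DMSO at the floor. Set 5 at 100 kb shows how the calls depend on the grid. Its window at 66240001 to 66340000 had 8.05 for PT2399 and 5.35 for DMSO, 2.70 apart, with an FDR of 0.446 in the authors' deposited table. The window 10 kb before it, with 8.17 for PT2399 and 3.11 for DMSO, was called. PT2399 thus stayed nearly level across that shift, and the difference lay in DMSO.

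In the called windows the 100 kb and 50 kb values matched with PT2399 and did not with DMSO. Each 100 kb window is made up of 2 windows of 50 kb, and the linear concentrations of these components can be added and set against the whole. In the 7 called windows the component sum differed from the whole by -0.01 to 0.01 in log2 with PT2399. With DMSO the component sum exceeded the whole by 0.76 to 2.42, with a median of 1.09. In the window at 66210001 to 66310000, DMSO was at the floor in 1 component and at 3.51 in the other, yet the whole was at 1.21. Measured from component sums, the change in the 7 windows was 2.71 to 4.30 with a median of 3.01, against 3.74 to 6.51 and 4.92 from the whole windows. All 7 were above 0 either way. Where PT2399 was the lower of the 2, around WIPI1, its component sum exceeded the whole as well, by 1.37 in the window at 66370001 to 66470000 (0.82 with DMSO). The excess with PT2399 was not limited to such windows. It was 1.28 at 66460001 to 66560000, where PT2399 was at 4.42 and DMSO at the floor. At 66120001 to 66220000, with 6.50 for PT2399 and 6.51 for DMSO, it was 0.66, against -0.01 with DMSO. Across the series the median excess was 0.02 for both treatments in windows at a mean level of 6 to 7.5 with both treatments at least 2. The maxima were 3.54 for PT2399 and 4.21 for DMSO. Those windows were matched on mean level and not on the DMSO level, and the window at 66210001 to 66310000 would not be among them. The sources used here do not state how inputs entered the values.

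**Figure D4:**
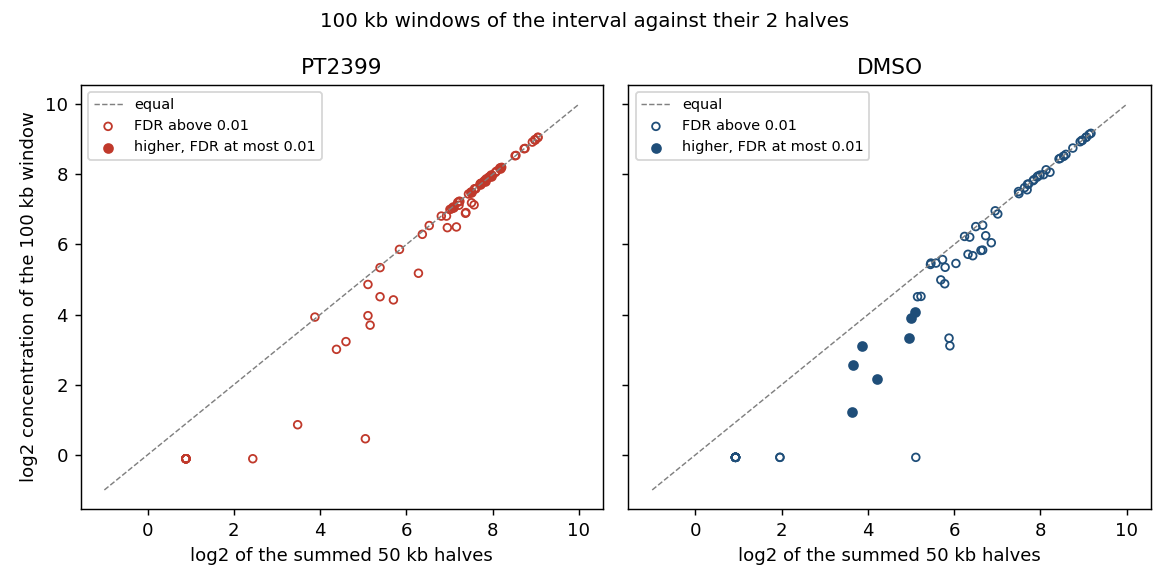
Log2 concentration of each 100 kb window of the interval against the log2 of the summed 50 kb windows that make it up, with PT2399 (left) and DMSO (right), and a dashed line where the 2 are equal. The 7 windows called higher (filled) lie on the line with PT2399 and 0.76 to 2.42 below it with DMSO.

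Taken as a sum over the interval, the difference was small. The linear concentrations of the 100 kb windows of 1 set added up to 1260 to 1540 with PT2399 and 1010 to 1340 with DMSO, a ratio of 1.10 to 1.25 that was above 1 in all 9 sets. At 50 kb the ratio was 1.08 to 1.14. The sets overlap and come from the same libraries, so they are no replicates. No such ratio is given for chromosome 17 or the series. The median change of the 63 windows of 100 kb above the floor was 0.06, with quartiles of -0.33 and 2.70, against -0.11 on chromosome 17 and -0.12 over the series. The median of the 126 windows of 50 kb was 0.12, against -0.10 and -0.12. Both medians of the interval turned below 0, to -0.05 and -0.03, when only windows with a level of at least 2 in both treatments were taken.

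Among the regions of the genome called higher with PT2399, the interval's stretch had the second lowest FDR of 171 at 100 kb. At 50 kb it had the lowest of 132, and its 13 windows were also the most of any region. The interval was chosen on this contrast and neighbouring windows overlap, so these ranks only describe the stretch. By the change in the lowest-FDR window of each region the stretch ranked 131st and 98th. That window had DMSO at the floor in 126 and 99 of those regions. At 50 kb the ranked change was 6.52, although the stretch also held a called window with 7.38. The 3 regions whose best 100 kb window had the levels nearest to the interval's were on chromosome 10 at 32030001 to 32140000 (7.70 with PT2399 and 0.97 with DMSO), on chromosome 10 at 69810001 to 69910000 (7.32 and 1.56) and on chromosome 3 at 39440001 to 39550000 (5.79 higher with PT2399, over 1.21 with DMSO). They had 2, 1 and 2 called windows, against 7 here, a number that ranked the third among the 171 regions. Over the series, 230 windows of 100 kb had PT2399 of at least 7 with DMSO below 4, and 269 had the opposite pattern. Of the 230, 7 lie in the interval, and they are not the same as the 7 called windows. The called window at 66160001 to 66260000 had DMSO at 4.07, and the window at 66200001 to 66300000 counts here but was not called. At 50 kb the numbers were 105, with 6 in the interval, and 212 with the opposite pattern.

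The authors also deposited gene lists, of 1023 genes at 100 kb and 258 at 50 kb, which give no direction themselves. They share window size and threshold with deposited window lists named for lower signal with PT2399, and were read as genes at those windows. Of the 5 genes, 0 were in either. Since 0 windows of the interval were called lower at either size, this follows from that reading of the lists, and nothing is read from it. Families as small as those of the 5 genes would give few listed genes in any case, and nothing is read from their counts. Of 19 genes for sulfatases and the sulfatase-modifying factors SUMF1 and SUMF2, SGSH, a lysosomal enzyme of heparan sulfate breakdown, was in both lists. The lists held 0 of 14 monocarboxylate transporters, 0 of 7 protein kinase A subunits, 0 of 4 WIPI-type autophagy genes and 0 of 2 archaelysins. Of 7 RefSeq neighbours of the 5 genes (BPTF, C17orf58, KPNA2, LINC00674, MIR635, FAM20A and LINC01482), 0 were listed. Their hg19 positions were not given, so they may lie inside the interval, where the same limit would hold.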

How the data were processed

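SON TSA-seq libraries of 786-O cells were grouped by title. Per the labels' protocols, DNA was sheared before pulldown, and tools named in the submitters' processing notes, without versions, are bedtools, Bowtie2, DiffBind and Picard, on hg19. How reads were counted, scaled and set against inputs was not given in the sources used here. The deposited tables hold, per the file headers, log2 concentrations for control (taken as DMSO) and treatment (taken as PT2399), a log2 fold, a p-value and an FDR per window, for 2 window sizes. Each size has 9 overlapping sets, offset in steps of 10 kb for 100 kb windows and of 5 kb for 50 kb windows. The deposited fold is DMSO minus PT2399 to within 0.01, and changes here are the difference of the concentrations, PT2399 minus DMSO.

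No test was run on the interval, and calls rest on the authors' FDR of at most 0.01, adjusted by them within each set. Since the labels do not say that replicates came from separate cultures, that FDR may reflect technical spread. Members, lists and alternatives were chosen with earlier results of these data known. A gene was placed by 1 hg19 position. Windows, neighbours and gene families were named by a rule that took all 5 genes, the windows with the lowest FDR or the highest and lowest change, those over each gene, and the 3 regions nearest in both levels; other windows named were chosen after their values were seen, and so was the sum of component windows. Recentring of each set on its measured windows (levels of at least 2 in both treatments), with standard errors implied by fold and p-value, was tested on simulated data. Values were computed in Python 3.11.15 with pandas 2.3.3, numpy 2.4.6 and scipy 1.17.1, and drawn with matplotlib 3.10.9.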

Additional observations from a re-analysis of the deposited data

How the results depend on the processing

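No paired analysis was possible because the tables hold 1 mean per treatment and no value per library, and no replicate could be left out for the same reason. An FDR of 0.001 lowered the counts of windows called higher from 7 to 4 (100 kb) and from 13 to 3 (50 kb). Windows with levels of at least 2 in both treatments gave 6 and 3, the second because DMSO lay below that level in the other 10. After recentring with implied standard errors on those windows 4 and 1 were called higher and 0 lower; the cause of that loss was not tested. An FDR of 0.05 or 0.1, adjustment over all 9 sets and a minimum of 5 agreeing sets left both counts within 1.5 times. The counts called lower, 0 at both sizes, became 2 at 50 kb and stayed 0 at 100 kb at an FDR of 0.05, and became 3 and 1 at 0.1, a comparison added after seeing the data. The median change of 0.06 at 100 kb became -0.04 with floor windows included, -0.05 with measured windows alone and 0.19 after recentring, and that of 0.12 at 50 kb became -0.04, -0.03 and 0.25; by construction, floor windows carry the gap between the 2 floors. With 16 added to each linear concentration, the medians over the genes at 100 kb were 2.88 for AMZ2 and ARSG, 2.86 for SLC16A6, -0.47 for WIPI1 and 0.14 for PRKAR1A, each with its sign kept. At 50 kb they were 2.75 for AMZ2 and ARSG, 1.83 for SLC16A6, -2.15 for WIPI1 and 0.63 for PRKAR1A. Without the addition those 50 kb medians were 6.68, 2.30, -5.31 and 3.43.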

Other observations

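Neighbouring windows shifted by 1 step share most of their sequence, and their levels differed by a median of 0.24 with PT2399 and 0.18 with DMSO at 100 kb. The largest single step was 4.05 with PT2399, between the windows starting at 66440001 (0.46) and 66450001 (4.51). With DMSO it was 3.18, between those starting at 66430001 (3.11) and 66440001 (at the floor). At 50 kb the largest steps were 5.65 with PT2399 and 4.66 with DMSO, both into the floor. In linear units these were drops to 0.927 with PT2399, next to 46.5, and to 0.953 with DMSO, next to 24.1. The windows of all 4 steps start between the ARSG and PRKAR1A positions.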
